A study of Mus musculus with 8 samples.

Results

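Messenger RNA of 10 genes for granule and antimicrobial proteins of neutrophils was measured in skin wounds of mice. The genes were chosen by name from the 18540 genes of the count table, and all 10 were found there: S100a8, S100a9, Lcn2, Camp, Ngp, Ltf, Mpo, Elane, Retnlg and Stfa2l1. They were read in 2 groups. Keratinocytes, the main cells of the epidermis, also make S100a8, S100a9 and Lcn2 when skin is wounded or inflamed, so these 3 genes do not mark neutrophils alone. The other 7 genes are known mainly from neutrophils and their precursors.

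Neutrophils carry ready-made proteins in granules that are filled at successive steps of their maturation in the bone marrow. Azurophil granules come first and hold myeloperoxidase and elastase, specific granules follow and hold lactoferrin, cathelicidin, lipocalin-2 and neutrophilic granule protein, and gelatinase granules come last. Granule genes are therefore read mainly in precursors, and a mature neutrophil in a wound can hold the protein with little of its transcript. S100A8 and S100A9 differ from these, because they pair into calprotectin, a metal-binding protein of the cytosol whose transcripts stay abundant in mature neutrophils.

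Total RNA of wound skin was sequenced from 4 control samples and 4 samples treated with Z1C2Z, a ZnO2/CeO2@ZIF-8 nanocomposite that was the one with more CeO2 of the pair studied. The sample titles call the groups con and shiyan and name no treatment, and shiyan was read as Z1C2Z only because its sample numbers match those of that group in the study. The text of the study calls the sequenced treated group ZCZ, a name that covers both nanocomposites of the pair. Controls received PBS, and treatment lasted 15 days. Each mouse of the wound models had 2 full-thickness wounds on its back, and the models used C57BL mice of 6 weeks and diabetic db/db mice of 10 weeks. The sources used here do not say which strain the sequenced skin came from, nor whether samples of a group came from separate mice, so p-values measure the spread between these samples, which may in part be technical. The samples keep their label numbers, which are 1, 2, 3 and 5 for the control group and 1, 2, 4 and 5 for the Z1C2Z group, and values of single samples are always given in this order.

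Totals were 28856790 to 38974888 counts per sample, and no pair of the 8 libraries agreed within sampling noise. As a check of the skin label, the basal keratinocyte genes Krt5 and Krt14 were at 797 ± 80.8 and 1669 ± 530 (mean ± SD, n = 4) in controls, in CPM (counts scaled to a common library total) per kilobase (kb) of exon. The libraries differed in other tissue as well. The summed level of 10 hair follicle markers was 589 to 3551 CPM in the control group and 4354 to 14662 CPM in the Z1C2Z group, with Z1C2Z-2 and Z1C2Z-4 highest, and 8 of the 10 markers rose. The sum of 8 skeletal muscle markers was 3124 to 5800 CPM in controls and 2699 to 2943 CPM after Z1C2Z, and the sum of 8 keratinocyte markers was 12205 to 14490 and 13089 to 18459 CPM.

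Compared with the control group, 1 of the 10 genes fell in the Z1C2Z group, and it was Lcn2, the gene of lipocalin-2, which withholds iron from bacteria by binding their siderophores. S100a8 and S100a9 had lower means after Z1C2Z but did not pass the threshold after adjustment. None of the genes known mainly from neutrophils passed it in either direction, and most of them were close to the limit of detection. A gene was called when edgeR's quasi-likelihood test gave an adjusted p under 0.05 and the log2 fold change was beyond 1 in size. Of the 10 genes, 8 passed the low-count filter and were tested, while Mpo and Elane did not pass it. The count of 1 gene called lower stands against 1.25% of all 15147 genes tested, and the count of 0 called higher against 2.15%. DESeq2 called 3 of the 10 genes lower, which were Lcn2, S100a8 and S100a9, and 0 higher. Over all 15147 tested genes it called 333 lower and 433 higher. With edgeR 3 of the 8 tested genes had an unadjusted p under 0.05, all 3 with lower values after Z1C2Z. Of all tested genes, 28% had one in either direction. Counts of genes at an unadjusted p given for the lists are to be read against the same 28%. Every Z1C2Z sample lay below every control sample for 1 of the 8 tested genes, Lcn2, where 8.82% of all tested genes did so, and the opposite held for 0 of them, where 8.45% of all tested genes did so. The log2 fold change was under 0 for 7 of the 8 tested genes with a median of -0.92, whereas over all tested genes the median was 0.01 and 48.9% were under 0.

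Lcn2 was measured at 16.3, 63.5, 26.8 and 52.5 CPM in the 4 controls. In the 4 Z1C2Z samples it was at 7.61, 5.78, 8.49 and 13.3 CPM. Control-2 and control-5 were the highest, and even the lowest control, control-1, lay above the highest treated sample, Z1C2Z-5. The group means were 39.8 ± 21.9 and 8.80 ± 3.21 CPM (SD, n = 4 each). The log2 fold change was -2.18 with a standard error of 0.43 and a 95% interval of -3.15 to -1.21 (edgeR, adjusted p = 0.0303). A two-sided exact permutation test on its log2 CPM, with 70 arrangements of the samples, gave p = 0.0286, unadjusted, which is the smallest value this design allows. The call was lost without control-2, without control-5 and without any treated sample but Z1C2Z-5, each left out alone, with edgeR adjusted p = 0.0604 and 0.084 for the 2 controls and 0.0689 to 0.0932 for the 3 treated samples, and in all 5 cases the log2 fold change stayed between -2.17 and -1.86. It was also lost with the skeletal muscle score as a covariate (log2 fold change -2.75, edgeR adjusted p = 0.0519), with the hair follicle score as a covariate (-1.58, edgeR adjusted p = 1.00) and without both Z1C2Z-2 and Z1C2Z-4 (-1.93, edgeR adjusted p = 0.299). With the keratinocyte score, which was built from Krt5 and Krt14 alone and not from the 8 markers, it was kept (-2.01, edgeR adjusted p = 0.0297). The hair follicle sums of the 2 groups did not overlap, so hair content and treatment cannot be told apart in these samples.

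S100a8 and S100a9 encode the 2 chains of calprotectin and were by far the most abundant transcripts of the set per length of exon. S100a8 stood at 194, 315, 525 and 477 CPM in the 4 controls. It stood at 208, 144, 65.1 and 210 CPM in the 4 Z1C2Z samples. The groups overlapped through 1 control only, since control-1 lay below Z1C2Z-1 and Z1C2Z-5, and Z1C2Z-4 was the lowest of the 8. The means were 378 ± 152 and 157 ± 68.3 CPM (SD, n = 4 each), which gave a log2 fold change of -1.27 with a standard error of 0.40 and a 95% interval of -2.17 to -0.36. edgeR gave an unadjusted p = 0.0113 and an adjusted p = 0.0804, and the exact permutation test gave p = 0.0857.

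S100a9 followed the same order of samples within each group. Its levels in the 4 controls were 317, 551, 874 and 770 CPM. Its levels in the 4 treated samples were 303, 225, 88.8 and 360 CPM. Control-1 again was the low control and lay under Z1C2Z-5 alone, and control-3 was highest and Z1C2Z-4 lowest for both genes. The means were 628 ± 247 and 244 ± 117 CPM (SD, n = 4 each), and the log2 fold change was -1.36 with a standard error of 0.43 and a 95% interval of -2.33 to -0.39 (edgeR, adjusted p = 0.0795; exact permutation p = 0.0571, unadjusted). Both intervals lay below 0, but neither gene passed the adjusted threshold. Both were called with DESeq2, at adjusted p = 0.00599 for S100a8 and 0.00501 for S100a9, and both were called with edgeR when control-1 was left out (adjusted p = 0.0465 and 0.0486). Other alternatives went the other way, for S100a8 and S100a9 in turn: the log2 fold changes were -0.86 and -0.92 without both Z1C2Z-2 and Z1C2Z-4 (edgeR, adjusted p = 0.397 and 0.374) and -1.06 and -1.10 with the hair follicle score as a covariate (edgeR, adjusted p = 1.00 for both).

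**Figure D1:**
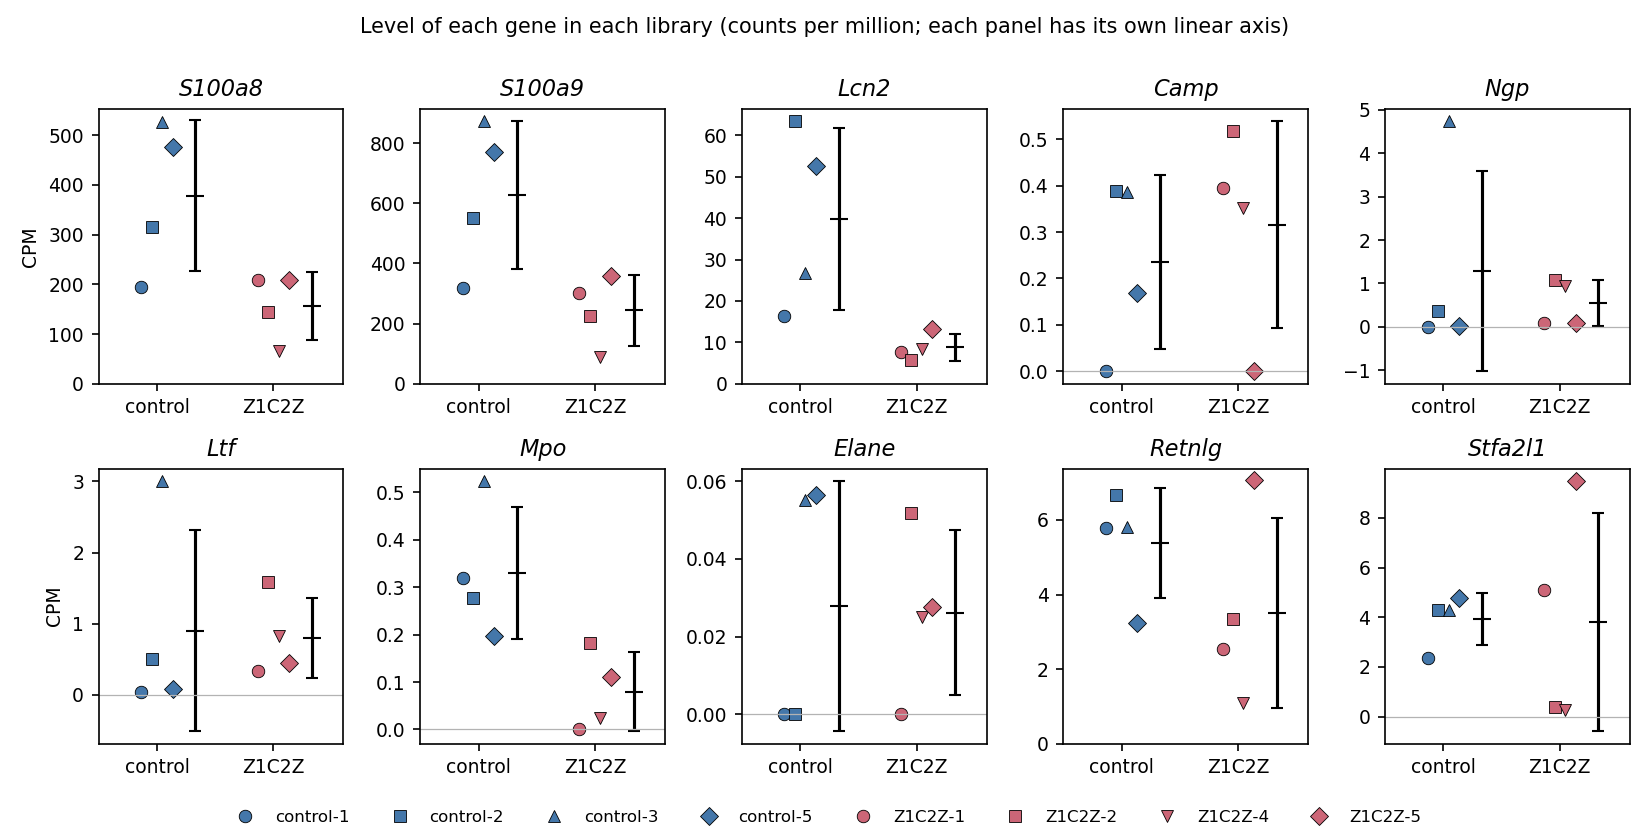
Level of each of the 10 genes in each library in CPM, on a linear axis of its own in every panel, with blue symbols for the 4 control and red symbols for the 4 Z1C2Z libraries and the mean ± SD beside them. For Lcn2 the 4 Z1C2Z samples lie between 5.78 and 13.3 CPM, all below the controls, while for Retnlg and Stfa2l1 the highest sample is Z1C2Z-5, at 7.07 and 9.48 CPM.

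The sequence before the start site is shown for S100a8 and S100a9, whose levels moved together over the samples, and for Retnlg, a neutrophil gene whose order over the samples differed from theirs. RefSeq promoter windows on GRCm38.p6 matched all 10 genes, and the 157 bases of S100a8 (chr3:90668821-90668977, plus strand) stop where an annotated exon of the gene begins, whereas those of S100a9 (chr3:90695722-90695971, minus strand) and Retnlg (chr16:48872358-48872607, plus strand) are the full 250 bases. Capitals mark matches to the C/EBP motif TTNNGNAA on either strand, C/EBP being the family of transcription factors that switches on granule genes.
S100a8: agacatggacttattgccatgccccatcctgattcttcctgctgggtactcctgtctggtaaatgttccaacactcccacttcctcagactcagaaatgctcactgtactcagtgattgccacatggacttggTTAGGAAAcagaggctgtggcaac
S100a9: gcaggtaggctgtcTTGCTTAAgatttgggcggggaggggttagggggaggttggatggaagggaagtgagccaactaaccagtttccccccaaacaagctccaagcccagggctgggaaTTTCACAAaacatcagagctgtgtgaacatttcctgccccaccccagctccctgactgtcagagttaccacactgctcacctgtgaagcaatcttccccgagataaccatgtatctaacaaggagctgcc
Retnlg: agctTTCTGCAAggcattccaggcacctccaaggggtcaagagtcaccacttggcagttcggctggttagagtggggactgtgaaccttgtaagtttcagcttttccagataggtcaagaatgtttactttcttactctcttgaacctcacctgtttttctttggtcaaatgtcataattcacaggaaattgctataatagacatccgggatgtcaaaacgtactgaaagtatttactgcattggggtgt
In the 250 bases before the start site, 7 of the 10 genes held this motif, namely S100a8, S100a9, Lcn2, Ngp, Ltf, Retnlg and Stfa2l1, with 11 matches in all. Of these, 2 lay in annotated exons, the match of Lcn2 and 1 of the 3 of Ngp, and 9 lay outside exons. Annotated exons covered 203 of the 250 bases for Mpo, 197 for Lcn2 and 161 for Camp. In these 3 windows a match, or the lack of one, thus says little about sequence outside exons. The motif is short, and 36.8% of all 32851 promoters of the same length held it. The STAT motif TTCNNNGAA, the AP-1 motif TGANTCA and the NF-kappa B motif were found in 0 of the 10 windows, where 7.02%, 6.75% and 7.25% of all promoters held them. A match is a string of letters and not a measured site.

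The specific granule genes Camp, Ngp and Ltf were present in traces. Camp encodes cathelicidin, a peptide that breaks bacterial membranes. Its counts were 0, 14, 14 and 6 in the 4 controls and 14, 20, 14 and 0 in the 4 Z1C2Z samples. The groups overlapped throughout, and a count of 0 allows up to 3 counts, or 0.107 CPM in control-1 and 0.0832 CPM in Z1C2Z-5, for counting error only. Its log2 fold change was 0.38 with a 95% interval of -1.66 to 2.43 (edgeR, adjusted p = 0.811), so a difference between groups was not detectable at this depth and spread.

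Ngp encodes neutrophilic granule protein, a relative of the cathelicidins. Ngp had 0, 13, 172 and 1 counts in the controls and 3, 42, 37 and 3 counts in the Z1C2Z samples. Ltf, the gene of the iron-binding protein lactoferrin, had 1, 18, 109 and 3 counts in the controls and 12, 61, 33 and 16 counts in the Z1C2Z samples. Control-3 carried most of the reads of both genes in its group, and Z1C2Z-2 and Z1C2Z-4 had more reads of each than the other treated samples. The log2 fold change was -1.23 for Ngp with a 95% interval of -4.35 to 1.89 (edgeR, adjusted p = 0.595). For Ltf it was -0.19 with a 95% interval of -2.52 to 2.13 (edgeR, adjusted p = 0.921). Without control-3 both signs turned, to 1.99 for Ngp and 1.89 for Ltf (edgeR, adjusted p = 0.353 and 0.205).

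The azurophil granule genes Mpo and Elane were present in traces as well. Mpo encodes myeloperoxidase, which makes hypochlorous acid from hydrogen peroxide. It had 9, 10, 19 and 7 counts in the 4 controls, and 0, 7, 1 and 4 counts in the 4 Z1C2Z samples. On the CPM scale the groups did not overlap, at 0.197 to 0.523 in controls and 0 to 0.181 after Z1C2Z, and the exact permutation test gave an unadjusted p = 0.0286, the smallest possible. In raw counts the groups met, since control-5 and Z1C2Z-2 both had 7, so the gap came from library scaling. Of all tested genes, 8.82% had every Z1C2Z sample below every control. When the low-count filter was left out, the log2 fold change was -2.0 and the gene was not called (edgeR, adjusted p = 0.136). Elane, the gene of neutrophil elastase, had 0 to 2 counts in every library, which is within the limit of 3 counts, and no fold is given.

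Retnlg and Stfa2l1 are transcribed in mature neutrophils of the mouse and were the best measured of the 7 neutrophil genes. Retnlg encodes resistin-like gamma, a secreted protein. It was at 5.79, 6.66, 5.81 and 3.24 CPM in the 4 controls, and at 2.54, 3.34, 1.08 and 7.07 CPM in the 4 Z1C2Z samples. The treated samples spanned more than the whole control range, with Z1C2Z-5 highest and Z1C2Z-4 lowest of the 8. The means were 5.38 ± 1.48 and 3.51 ± 2.55 CPM (SD, n = 4 each), and the log2 fold change of -0.62, with a 95% interval of -1.71 to 0.48, was not called (edgeR, adjusted p = 0.436). It ranged from -1.21 without Z1C2Z-5 (edgeR, adjusted p = 0.0844) to -0.32 without Z1C2Z-4 (edgeR, adjusted p = 0.688), and was -0.16 without both Z1C2Z-2 and Z1C2Z-4 and -0.12 with the hair follicle score as a covariate (edgeR, adjusted p = 0.902 and 1.00).

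Stfa2l1 encodes a stefin A, an inhibitor of cysteine proteases, and has near-identical relatives on the same chromosome, so the counting may have divided reads among them. It was at 2.38, 4.30, 4.30 and 4.76 CPM in the 4 controls. In the 4 Z1C2Z samples it was at 5.10, 0.389, 0.276 and 9.48 CPM. The treated samples lay on both sides of the controls, Z1C2Z-1 and Z1C2Z-5 above all 4 and Z1C2Z-2 and Z1C2Z-4 below all 4. The means were thus close, 3.93 ± 1.06 and 3.81 ± 4.40 CPM (SD, n = 4 each), with a log2 fold change of -0.05 and a 95% interval of -2.08 to 1.97 (edgeR, adjusted p = 0.975). In bulk skin fewer neutrophils and less RNA per neutrophil cannot be told apart for any of these genes.

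**Figure D2:**
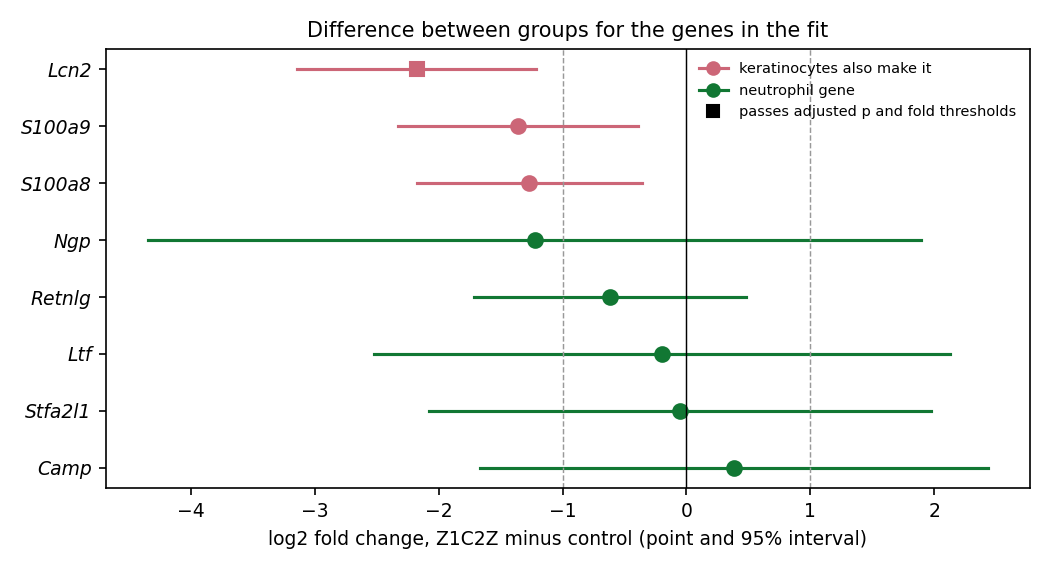
Log2 fold change of Z1C2Z against control with its 95% interval from edgeR for the 8 tested genes, with red for genes that keratinocytes also make and green for neutrophil genes; dashed lines mark the fold threshold of 1 in size and the square the gene that was called. The intervals of Lcn2, S100a9 and S100a8 lie below 0, and those of the other 5 genes include 0.

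Per length of exon, the levels in the control group spanned a wide range. S100a9 came first at 1202 ± 473 CPM per kb (SD, n = 4), a level between those of Krt5 and Krt14, and S100a8 second at 544 ± 219. Lcn2 at 15.2 ± 8.36, Stfa2l1 at 9.39 ± 2.53 and Retnlg at 9.06 ± 2.50 CPM per kb followed. Ngp at 1.05 ± 1.89, Camp at 0.311 ± 0.248, Ltf at 0.262 ± 0.410, Mpo at 0.0962 ± 0.0406 and Elane at 0.0283 ± 0.0327 CPM per kb came last. In this order neighbours overlapped over the 4 controls except at 3 steps, from S100a8 to Lcn2, from Retnlg to Ngp and from Mpo to Elane. In the Z1C2Z group S100a9 remained first at 468 ± 225 and S100a8 second at 226 ± 98.4 CPM per kb, but Stfa2l1 at 9.10 ± 10.5 and Retnlg at 5.91 ± 4.31 then stood above Lcn2 at 3.35 ± 1.22, with ranges that overlapped.

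Ratios of 2 genes within a library do not depend on its scaling, and 3 such ratios were compared. S100a9 and S100a8, which form 1 complex, had count ratios of 1.63, 1.75, 1.66 and 1.61 in the 4 controls and of 1.46, 1.56, 1.36 and 1.72 in the 4 Z1C2Z samples. The controls were tightly grouped, and 3 of the 4 treated samples lay below all of them. The difference of the mean log2 ratios was -0.13 (exact permutation p = 0.143, 0.214 after adjustment over the 3 ratios).

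The ratio of S100a8 to Retnlg sets a transcript shared with keratinocytes against one of neutrophils. It was 33.5, 47.3, 90.4 and 147 in the controls and 82.0, 43.2, 60.3 and 29.6 in the Z1C2Z samples. The 2 groups overlapped over most of their range, and the difference of the mean log2 ratios was -0.44 (exact permutation p = 0.457, also 0.457 after adjustment), which became -0.07 without control-5 and -0.78 without control-1. Lcn2 to Ltf, which specific granules hold together, gave 460.0, 127, 8.94 and 622 in the controls and 22.5, 3.66, 10.2 and 30.0 in the Z1C2Z samples. All but control-3 among the controls lay above every treated sample, and the difference of the mean log2 ratios was -3.23 (exact permutation p = 0.114, 0.214 after adjustment), with Ltf at 1 and 3 counts in control-1 and control-5. A difference between groups was thus shown for none of the 3 ratios by the exact permutation test.

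**Figure D3:**
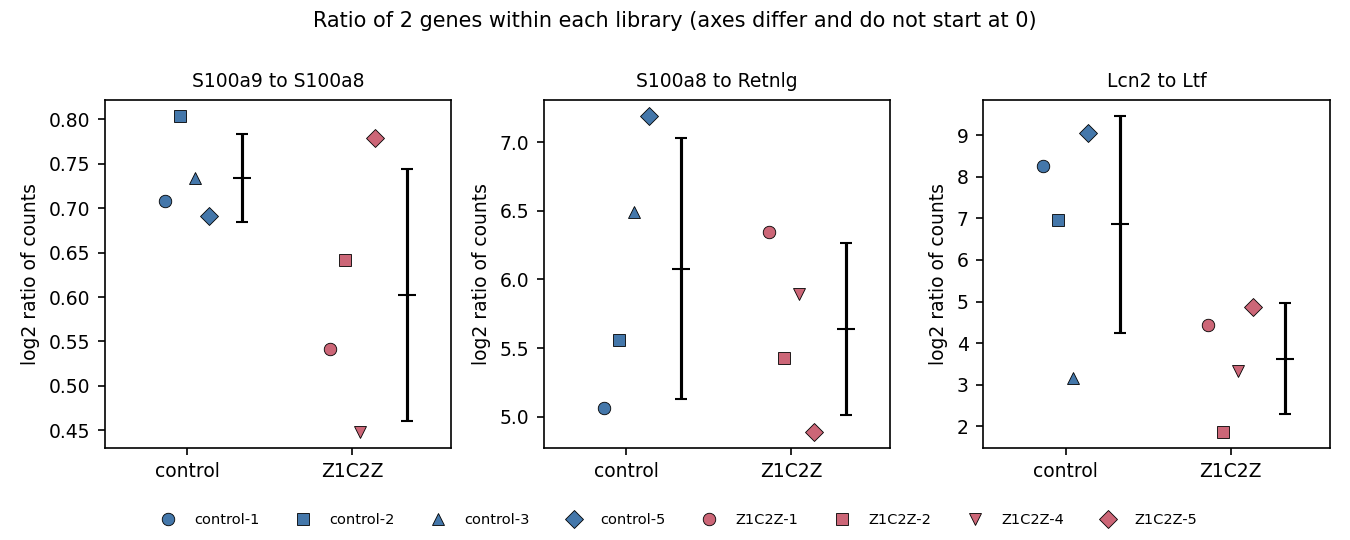
Log2 ratio of the counts of 2 genes within each library, with 0.5 added to each count, for the 4 control (blue) and 4 Z1C2Z (red) libraries and the mean ± SD of each group. The groups overlap in each panel, and in the panel of Lcn2 to Ltf control-3 is the 1 control that lies among the treated samples.

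Other granule and neutrophil genes were described by list, as counts and medians. Of 5 genes listed as other azurophil granule genes 2 were tested, Serpinb1a and Prtn3. Serpinb1a encodes an inhibitor of elastase, cathepsin G and proteinase 3 that is cytosolic rather than a granule protein and is made in many cell types. Serpinb1a fell from 105 ± 23.8 to 47.4 ± 13.7 CPM (log2 fold change -1.14, edgeR, adjusted p = 0.0303), where 1.25% of all tested genes were called lower. Prtn3, the gene of proteinase 3, was at 0.107 to 0.986 CPM in controls and 0.31 to 0.665 CPM after Z1C2Z. It was not called (log2 fold change 0.03, edgeR, adjusted p = 0.976). Of 6 other specific granule genes none passed the test in edgeR, 3 had an unadjusted p under 0.05 (28% over all tested genes), and the median log2 fold change was -1.09. Hp, the gene of the haemoglobin-binding protein haptoglobin, was at 221 to 523 CPM in controls and 108 to 201 CPM after Z1C2Z, without overlap (log2 fold change -1.07, edgeR, adjusted p = 0.0515). Such a lack of overlap, with lower values after Z1C2Z, held for 8.82% of all tested genes. The control mean of Hp was 328 CPM, against 0.236, 1.28 and 0.905 CPM for Camp, Ngp and Ltf. The cell source of Hp was not tested. Mmp8, neutrophil collagenase, was at 6.00 to 14.7 and 1.93 to 8.29 CPM.

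Of 8 gelatinase granule and secretory vesicle genes, 7 had values under 0 with a median of -0.70, none passed the test, and 4 had an unadjusted p under 0.05 in edgeR (28% over all tested genes). Mmp9, or gelatinase B, was at 33.4 to 53.7 CPM in controls and at 6.40 to 57.8 CPM after Z1C2Z. Its highest sample was Z1C2Z-5 and its lowest were Z1C2Z-2 and Z1C2Z-4, the same treated samples that were highest and lowest for Stfa2l1. Of 16 tested mature neutrophil genes, 12 had values under 0, with a median of -0.80, and 0 fell in edgeR, where 4 of the 16 had an unadjusted p under 0.05, no more than the 28% of all tested genes. Csf3r, the receptor for the neutrophil growth factor G-CSF, was at 27.6 to 52.7 CPM in controls and at 18.2, 10.5, 5.22 and 39.4 CPM in the 4 Z1C2Z samples (log2 fold change -1.19, edgeR, adjusted p = 0.176). Trem1 of the same list was at 14.4 to 17.4 CPM in controls and at 0.285 to 8.68 CPM after Z1C2Z. It was not called (log2 fold change -2.10, edgeR, adjusted p = 0.145). It was the 1 gene of this list with every Z1C2Z sample below every control, against 8.82% of all tested genes. Ly6g, the gene of the surface antigen most used to mark mouse neutrophils, had at most 6 counts in any library and was not tested. The 1 gene of this list that was called was Padi4, whose enzyme converts arginine in histones to citrulline, and it rose from 8.18 ± 1.58 to 20.3 ± 4.78 CPM (log2 fold change 1.31, edgeR, adjusted p = 0.0299). It was at 8.3, 8.6, 9.8 and 6.0 CPM in the 4 controls and at 20.4, 23.0, 24.3 and 13.6 CPM in the 4 Z1C2Z samples. This order was like that of the hair follicle sums and unlike that of Csf3r and Mmp9, for which Z1C2Z-5 was the highest treated sample. None of the 6 NADPH oxidase genes passed the test in edgeR, where 2 had an unadjusted p under 0.05, and their median was -0.33.

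Genes that act on neutrophil production or answer these proteins were read in the same way. Of 6 tested regulators of granulopoiesis, 2 fell, where 1.25% of all tested genes were called lower. Csf3, which encodes G-CSF, was at 16.3, 1.17, 1.35 and 22.3 CPM in the 4 controls and at 0.874, 0.233, 0.0753 and 0.887 CPM in the 4 Z1C2Z samples. Control-1 and control-5 were far above the other samples, and the log2 fold change was -4.32 with a standard error of 1.12 (edgeR, adjusted p = 0.0484). Cebpd, a C/EBP factor, fell from 29.5 ± 11.3 to 11.8 ± 3.26 CPM (edgeR, adjusted p = 0.0348). Cebpe, another C/EBP gene of this list, went the other way but did not pass the low-count filter. It had 2, 1, 1 and 0 counts in the 4 controls and 7, 6, 6 and 11 counts in the 4 Z1C2Z samples. Of 6 tested receptors of these proteins none passed in edgeR, where 3 had an unadjusted p under 0.05. Tlr4, a receptor known to bind calprotectin, was at 70.5 to 110 CPM in controls and 34.3 to 66.6 CPM after Z1C2Z, without overlap (log2 fold change -0.69, edgeR, adjusted p = 0.0917). Values lay lower without overlap for 8.82% of all tested genes.

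Antimicrobial and S100 genes of the epidermis moved in both directions. Of 12 epithelial antimicrobial genes, Defb14, a beta-defensin, fell (log2 fold change -1.52, edgeR, adjusted p = 0.0362) and S100a7a, a psoriasin-like S100 gene, rose (1.81, edgeR, adjusted p = 0.0391). Of 11 other S100 genes tested, S100a3, which is known from the hair cuticle, and S100a7a rose and none fell, with a median of 0.25. S100a3 was at 11.9 to 89.6 CPM in controls and at 228, 664, 557 and 87.3 CPM in the 4 Z1C2Z samples, an order like that of the hair follicle sums. S100a7a had a like order, at 26.8, 48.3, 37.0 and 12.5 CPM in the 4 Z1C2Z samples. Of 11 other stefin A genes 6 were found by symbol, of which Stfa1 fell (-1.06, edgeR, adjusted p = 0.0299), whereas Stfa3 was at 322 to 729 CPM in controls and 396 to 713 CPM after Z1C2Z. Of 10 wound-activated keratinocyte genes, 8 had values under 0 and 2 over 0, with a median of -0.73. In edgeR 6 had an unadjusted p under 0.05 in either direction, where 28% of all tested genes did. Nfkbiz, a regulator of inflammatory genes that include Lcn2, fell (-1.05, edgeR, adjusted p = 0.0348), and Krt6a and Krt16 were not called (-0.73 and -0.61, edgeR, adjusted p = 0.273 and 0.264).

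Markers of blood and of other immune cells were set beside these values. All 7 red blood cell and platelet markers had values under 0 with a median of -1.05. In edgeR all 7 had an unadjusted p under 0.05, where 28% of all tested genes did. Hbb-bt and Alas2 fell, where 1.25% of all tested genes were called lower. The summed level of the 7 markers was 276 to 467 CPM in controls and 104 to 268 CPM after Z1C2Z. The sum of 10 macrophage and monocyte markers was 1521 to 1743 CPM in controls and 876 to 1586 CPM after Z1C2Z, none was called in edgeR (4 had an unadjusted p under 0.05), and Z1C2Z-2 and Z1C2Z-4 were lowest. The sum of 5 mast cell markers was 159 to 245 and 156 to 201 CPM. The part of blood and of these cells in the levels of the granule genes was not tested. In edgeR 0 genes of the whole table were called, in either direction, without control-5 (3223 genes at an unadjusted p under 0.05), without Z1C2Z-1 (4208), without Z1C2Z-2 (3137) and without Z1C2Z-4 (3100), so every call made with edgeR on all 8 samples depends on each of these 4 libraries.

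**Figure D4:**
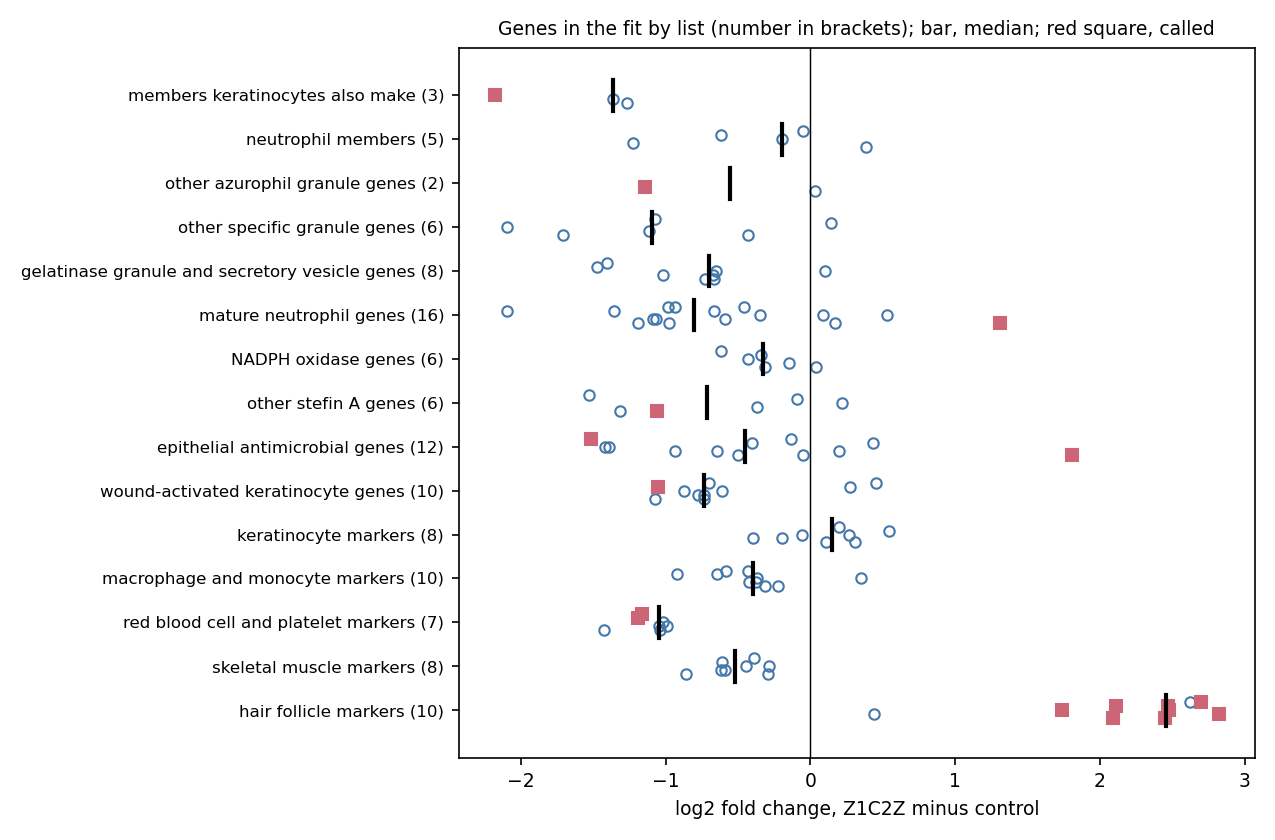
Log2 fold change of Z1C2Z against control for each tested gene, by gene list, with the number of tested genes in brackets; black bars are medians, red squares are called genes and open circles genes that were not called. The neutrophil lists have medians between -0.19 and -1.09 with few called genes, while 8 of the 10 hair follicle markers are called higher.

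The genes whose log2 CPM followed S100a8 most closely over the 8 samples were S100a9 (Pearson r = 0.997), Slc11a1 (0.983), Josd1 (0.978), Fam114a1 (0.977) and Adgre5 (0.976). Slc11a1 encodes a metal ion transporter of phagocyte membranes and Adgre5 the leukocyte surface protein CD97. For Retnlg the 5 closest were Gm38525 (0.946), Nanos1 (0.935), Sycp2 (0.929), Tmem168 (0.928) and Ifit1bl2 (0.924), and none of these belongs to a list of neutrophil genes used here. These coefficients describe 8 samples that share the treatment contrast, were picked as the highest of 15147 genes and carry no test.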

How the data were processed

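RNA of wound skin from 4 control and 4 Z1C2Z samples was sequenced after rRNA removal, per the labels with Trizol extraction (the methods name another kit). The values that the authors deposited are raw read counts of each gene, not normalized, in a single table. The aligner, counting program, genome build and strand setting are not given in the sources used here, so reads shared by near-identical genes may have been divided in a way that cannot be undone. Samples were grouped by their titles, con and shiyan, which name no treatment, and shiyan was taken as Z1C2Z because its numbers match those of the study's Z1C2Z samples. The study's text names the sequenced treated group only ZCZ. The table held 0 other per-sample columns.

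Differences were fitted with edgeR 4.0.16 in R 4.3.3 (filterByExpr, TMM, quasi-likelihood test, Benjamini-Hochberg adjustment over 15147 genes), calling genes at an adjusted p under 0.05 and a log2 fold change beyond 1 in size. CPM used TMM-scaled library sizes, and log2 CPM a prior count of 2. Intervals of 95% came from the quasi-likelihood F statistic. Single genes and ratios (0.5 added to each count) were compared with exact two-sided permutation tests in SciPy 1.17.1. Exon lengths came from the GENCODE annotation of GRCm38 and promoters from RefSeq. Intervals and floors at low counts cover counting error only. Totals of 28856790 to 38974888 counts leave genes under about 10 counts poorly measured.

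The genes described, the lists and the tests were chosen with earlier results of these data known. Of each list the called genes and up to 4 with the highest mean CPM could be named. The 5 genes closest to S100a8 and to Retnlg were named as well. Ly6g, Cebpe and Trem1 were added after their values were seen. On simulated data for control against Z1C2Z with 15147 genes, edgeR recovered 189 (94.5%) of 200 genes that had been shifted by 2 on the log2 scale and called 5 unchanged genes. Alternatives were DESeq2 1.42.0, RLE size factors, other low-count filters, the sample number as a block, each sample left out, tissue scores as covariates and no fold threshold. A tissue score was the mean log2 CPM of all listed markers for muscle and for hair, but of Krt5 and Krt14 alone for keratinocytes.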

Additional observations from a re-analysis of the deposited data

Results flagged for a closer look

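In control-3, Ngp stood at 4.74 CPM and Ltf at 3.00 CPM, each far above the other 3 controls. The gap to the next control took up 0.924 of the control range for Ngp and 0.844 for Ltf. These were the 2 groups marked among 26 groups of 4 samples that were checked, where chance alone marks about 1 in 20. The S100a8 and S100a9 levels of control-3 were the highest of the controls as well, at 525 and 874 CPM, with control-5 next at 477 and 770 CPM. The reason for the high Ngp and Ltf counts was not tested.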

How the results depend on the processing

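With edgeR and no change, 189 genes were called lower, 326 higher, and 1 of the 10 granule genes lower. DESeq2 called 333 lower and 3 of the 10 lower. The skeletal muscle score as a covariate left 64 lower, 20 higher and 0 of the 10. The hair follicle score as a covariate, and leaving out both Z1C2Z-2 and Z1C2Z-4, left 0 lower, 0 higher and 0 of the 10 in edgeR, with 584 and 1980 genes at an unadjusted p under 0.05; both were chosen after seeing the data. Without the fold threshold 583 genes were called lower and 648 higher. Leaving out 1 sample gave 0 to 316 lower, 0 to 463 higher and 0 to 3 of the 10 lower; without control-2 there were 76 lower and 8 higher. The cause was not tested. None of the 10 was called higher in any alternative run.

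Signs turned for Camp with the muscle score (-0.66), the hair score (-2.85) and both samples left out (-0.29); for Ltf with the keratinocyte score (0.22); and for Stfa2l1 with the hair score (1.51) and both samples left out (0.89). Without a turn of sign, the hair score moved Ngp to -9.01 (edgeR, unadjusted p = 2.24e-05, adjusted p = 0.113) and Ltf to -4.15, and both samples left out moved them to -3.89 and -1.22. Leaving out 1 sample gave -1.79 to 1.99 for Ngp, -0.77 to 1.89 for Ltf and -1.05 to 0.33 for Stfa2l1. Deviations from the group means correlated at -0.10, -0.06 and 0.32 between samples with the same number, for numbers 1, 2 and 5. So few values cannot show whether samples with the same number share an origin, and the samples were treated as unpaired. A replicate block on these numbers turned Ngp to 1.74 and Ltf to 2.10, left Lcn2 called at -2.17, gave -0.74 for S100a8 and -0.82 for S100a9 (edgeR, adjusted p = 0.233 and 0.169), and gave 184 genes lower and 271 higher. RLE size factors and both other filters changed no call among the 10. The 3 ratios moved by less than the spread between samples in every alternative run, but that spread is wide, and the difference for S100a8 to Retnlg ranged from -0.78 to -0.07 when 1 sample was left out. Depth limits Camp, Ngp, Ltf, Mpo and Elane, which had under 20 counts in most libraries.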
